A study of Mus musculus with 3 samples.

Results

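The comparison described here sets 1 RNA sequencing library of MIN6 cells given an siRNA against Srsf1 (siSRSF1) beside 1 library of MIN6 cells given a negative control siRNA (siNC). Its members are all genes with at least 20 reads in either library, which gave 11602 of the 21899 gene symbols in the deposited table. MIN6 is a mouse insulinoma line that secretes insulin and stands in for beta cells of the pancreas in culture. The series holds 3 libraries, and the remaining one, from MIN6 cells given an siRNA against Srsf2 (siSRSF2), is given beside the others for context. All 3 groups are transfected MIN6 cultures. The labels give no siRNA sequence, dose or time after transfection, and each siRNA is represented by 1 library. No difference below therefore has a replicate check, and every interval is a 95% interval of counting error in these libraries only.

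SRSF1, also named ASF or SF2, is an SR protein, a member of a family of RNA-binding proteins rich in serine and arginine that promote recognition of exons by the splicing machinery. It binds purine-rich sequences that hold GGA, and it also takes part in mRNA export, translation and nonsense-mediated decay. A read count per gene sums over all transcript forms of that gene, so it shows a change in the amount of a message and not a change in exon use.

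Depth was 14478045 reads in siSRSF1, 14682576 in siSRSF2 and 12688334 in siNC, with reads for 15444, 14238 and 14584 genes in that order. Srsf1 itself (chromosome 11, 88047373 to 88053755, GRCm38, the build of all coordinates below) had 3171 reads in siSRSF1, 4105 in siSRSF2 and 4070 in siNC. Its scaled ratio of siSRSF1 to siNC was 0.683 (0.652 to 0.716), a reduction short of 2-fold, and 0.751 after correction for the GC content of transcripts. The scaled ratio of siSRSF2 to siNC was 0.847 (0.811 to 0.884), so Srsf1 lay below siNC in that library too. All 11 beta-cell markers were compared, and their summed level was 61900 CPM (counts relative to the scaled library total) in siSRSF1, 67800 CPM in siSRSF2 and 64200 CPM in siNC. Markers of other cell types were low for most types: the 8 acinar markers had 2 reads in siSRSF1, 0 in siSRSF2 and 4 in siNC, and the 6 fibroblast and 4 endothelial markers had 3 to 13 reads per library. The 6 alpha-cell markers summed to 1820 CPM in siSRSF1, 2120 CPM in siSRSF2 and 2630 CPM in siNC, nearly all of it Ttr and Gcg, with Irx1 at 0 in all 3. The delta-cell markers summed to 23.8 CPM in siSRSF1 and 20.8 CPM in siNC, the PP-cell markers to 1.67 and 1.43 CPM, and the epsilon-cell marker to 0.558 and 0.955 CPM in the same order. Of the 5 immune markers, Cd68, a lysosomal protein of macrophages, had 232 reads in siSRSF1, 55 in siSRSF2 and 56 in siNC, a ratio of 3.61 (2.7 to 4.96) of siSRSF1 to siNC, while Ptprc had 1 read in siSRSF1 and 0 elsewhere, and Adgre1 and Cd3e were at 0 in all 3 libraries. The 6 ductal markers summed to 158 CPM in siSRSF1, 211 CPM in siSRSF2 and 224 CPM in siNC. Spp1, a secreted phosphoprotein, had 1596 reads in siSRSF1, 2840 in siSRSF2 and 2529 in siNC, Krt7 had 659 reads in siSRSF1, 313 in siSRSF2 and 282 in siNC, and Krt19 had 1 read in siSRSF1 and 0 in the other libraries. The part of such cells in the results below was not tested. In RNA from whole cultures, fewer cells that express a gene and less of its RNA per cell cannot be told apart.

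Most genes had nearly the same level in both libraries, and the genes that did differ by 2-fold or more were higher in siSRSF1 more often than lower. Ratios were formed from TMM-scaled counts with a prior of 0.5 reads, and calling a gene took a 2-fold ratio with an interval that excluded 1. Of the 11602 genes, 279 (2.4%) were called higher in siSRSF1 and 139 (1.2%) lower, which makes 418 (3.6%) in either direction. The median log2 ratio was 0, with quartiles of -0.2 and 0.22. Smaller differences were more evenly split, with 795 genes (6.85%) at least 1.5-fold higher and 579 (4.99%) at least 1.5-fold lower. At 4-fold the counts were 57 higher and 6 lower. The counting interval excluded 1 for 6113 genes (52.7%), of which 3159 lay above and 2954 below. Since the spread between cultures is not known here, an interval that excludes 1 says that these 2 libraries differ, not that the siRNA is the source.

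The minimum of 20 reads shaped the called set. Of the 11602 genes, 11185 had 20 reads in both libraries, and these held 148 of the genes called higher and 75 of those called lower. A further 285 genes passed only through siSRSF1 and held 131 called higher, and 132 passed only through siNC and held 64 called lower. Genes of the last 2 groups could be called in 1 direction only. At the edge of the rule, 47 genes had exactly 20 reads in the higher library and 41 had 19 reads and were left out. At the edge of the 2-fold size, Hmox1, which encodes heme oxygenase, stood just inside at 2.0105 (1.94 after GC correction) and Med30, a Mediator subunit, just outside at 1.9996. Bphl stood just inside the lower bound at 0.49997, and Rtl10 just outside at 0.50101.

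**Figure D1:**
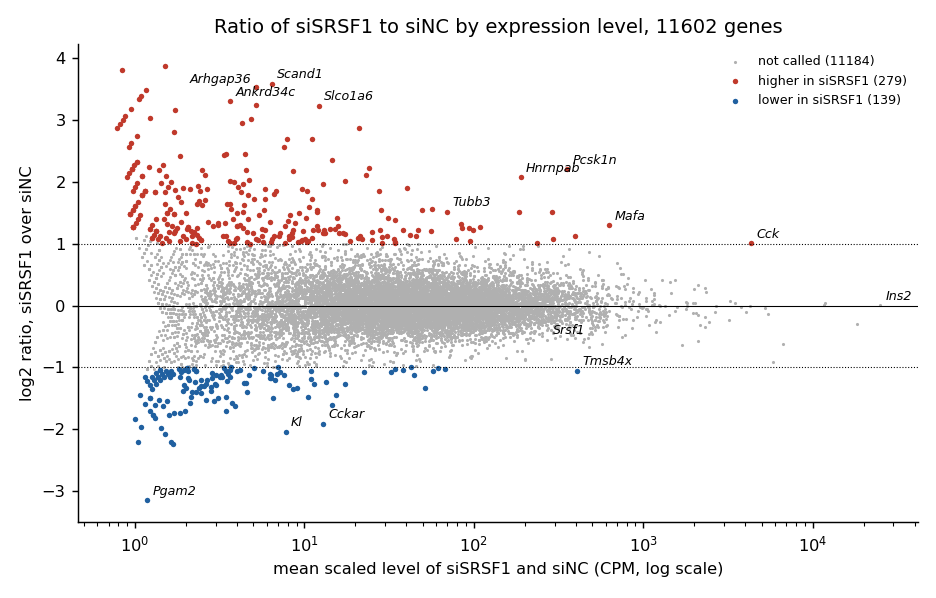
Each point is 1 of the 11602 genes compared, with the mean scaled level of siSRSF1 and siNC on a log axis (CPM) and the log2 ratio of siSRSF1 over siNC on the linear axis. Red points are the 279 genes called higher in siSRSF1, blue points the 139 called lower, and dotted lines mark 2-fold. The cloud narrows with level, and above about 100 CPM few genes, among them Pcsk1n, Hnrnpab, Mafa and Tmsb4x, lie beyond 2-fold.

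The spread of ratios differed by how strongly a gene was expressed. Up to 2 CPM, the interquartile range of log2 ratios over 470 genes was 1.39, where counting error alone gives 0.63 by formula. In this band 20.6% of the genes were called higher and 10.9% lower. The minimum of 20 reads equals 1.4 CPM in siSRSF1 and 1.59 CPM in siNC, so a gene in this band can pass through 1 library alone. The formula leaves this selection out, and its part in the spread and called shares of the band was not tested. Between 20 and 50 CPM, the range over 3020 genes was 0.40 against 0.13 from counting error, and 0.861% were called higher and 0.199% lower. From 100 CPM upward the range stopped narrowing and stayed at 0.32, although counting error went on falling to 0.03 in the 191 genes over 500 CPM. The observed spread was thus 1.95 to 2.49 times the counting spread in the bands up to 20 CPM and 11.5 times in the highest band. In that highest band, the interval excluded 1 for 87.4% of the genes, but 1.05% were called higher and 0% lower. Well-measured genes thus differed by small amounts that counting error does not cover, and it cannot be told apart whether these come from the siRNA or from differences between 2 cultures and library preparations.

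**Figure D2:**
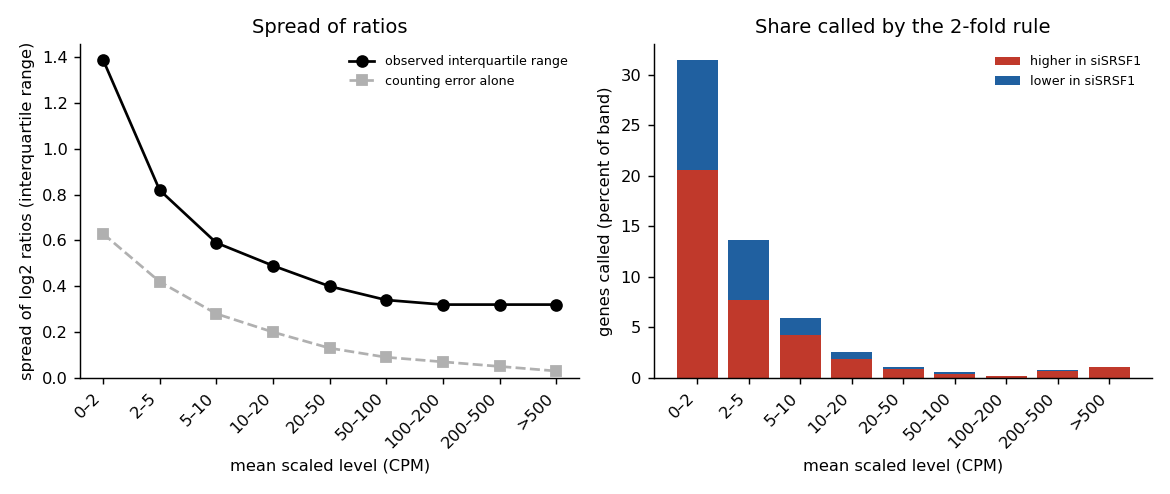
Left, the interquartile range of log2 ratios of siSRSF1 over siNC in 9 bands of mean scaled level (CPM), as observed (black circles) and as counting error alone would give (grey squares). Right, the percentage of genes in each band called higher (red) or lower (blue) in siSRSF1. The observed spread levels off at 0.32 from 100 CPM upward, and the share of called genes is 31.5% in the lowest band and 1.05% in the highest.

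Few of the most abundant messages differed by 2-fold. In all, 108 genes had 10000 or more reads in the higher library, and 2 of these were called, both higher. Cck, the precursor of the peptide hormone cholecystokinin, had 83276 reads in siSRSF1, 90798 in siSRSF2 and 36228 in siNC, a ratio of 2.02 (1.99 to 2.04) in siSRSF1. Mafa, a transcription factor of the insulin gene, had 12807 reads in siSRSF1, 10309 in siSRSF2 and 4555 in siNC, a ratio of 2.47 (2.38 to 2.55). For both genes the siSRSF2 library also stood above siNC. Both lost the call when ratios were corrected for the GC content of transcripts, at 1.83 for Cck and 1.79 for Mafa. The siSRSF2 values share the siNC library with the comparison described here, so a gene that is low in siNC alone is raised in both.

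Among the 3519 genes with at least 1000 and fewer than 10000 reads in the higher library, 18 genes were called higher and 3 lower. Pcsk1n, which encodes proSAAS, an inhibitor of prohormone convertase 1, had 8388 reads in siSRSF1, 12596 in siSRSF2 and 1586 in siNC, a ratio of 4.64 (4.4 to 4.9). Hnrnpab, an hnRNP protein that binds RNA, had 4391 reads in siSRSF1, 3033 in siSRSF2 and 912 in siNC, a ratio of 4.22 (3.93 to 4.54). Both were thus well above siNC in each siRNA library. Insm1, a zinc finger factor of endocrine differentiation, had 6103 reads in siSRSF1, 5486 in siSRSF2 and 1882 in siNC, a ratio of 2.84 (2.7 to 3.0). Mapt, the microtubule-associated protein tau, had 1206 reads in siSRSF1, 530 in siSRSF2 and 358 in siNC, a ratio of 2.95 (2.62 to 3.33). Gsdma, of the gasdermin family of pore-forming proteins, had 3919 reads in siSRSF1, 2024 in siSRSF2 and 1199 in siNC, a ratio of 2.87 (2.69 to 3.06). For Mapt and Gsdma the siSRSF2 library lay much closer to siNC, at ratios of 1.24 and 1.42.

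Larger ratios came from genes with fewer reads. Of 6348 genes with 100 reads or more but fewer than 1000, 102 were called higher and 32 lower, and of 1627 genes with fewer than 100, 157 were called higher and 104 lower. Scand1, a SCAN-domain protein (chromosome 2, 156311846 to 156312747), had 171 reads in siSRSF1, 159 in siSRSF2 and 12 in siNC, a ratio of 12.1 (6.97 to 24.7). Rab5if, a membrane protein that interacts with RAB5, had 534 reads in siSRSF1, 410 in siSRSF2 and 63 in siNC, a ratio of 7.39 (5.72 to 9.81). Mrps34, of the small subunit of the mitochondrial ribosome, had 278 reads in siSRSF1, 237 in siSRSF2 and 37 in siNC, a ratio of 6.52 (4.66 to 9.56). For these 3 genes siNC was the library that stood apart, and both siRNA libraries were close to each other. A second set was far higher in siSRSF1 than in siSRSF2. Arhgap36, of a family of GTPase-activating proteins (chromosome X, 49463945 to 49500244), had 138 reads in siSRSF1, 7 in siSRSF2 and 10 in siNC, a ratio of 11.6 (6.39 to 25.8). Slco1a6, an organic anion transporter (chromosome 6, 142085761 to 142208521), had 315 reads in siSRSF1, 63 in siSRSF2 and 29 in siNC, a ratio of 9.39 (6.50 to 14.5). Here the siSRSF1 library was the one that stood apart. Ankrd34c, an ankyrin-repeat protein and the only one of these under 100 reads, had 95 reads in siSRSF1, 5 in siSRSF2 and 8 in siNC, a ratio of 9.90 (5.08 to 24.8). Stmn4, a neuronal stathmin that acts on microtubules, had 124 reads in siSRSF1, 14 in siSRSF2 and 13 in siNC, a ratio of 8.11, and it too was high in siSRSF1 alone.

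Genes called lower were of lower expression, and the 3 with 1000 or more reads lay close to 2-fold. Tmsb4x, thymosin beta 4, which binds actin monomers, had 3808 reads in siSRSF1, 4634 in siSRSF2 and 6938 in siNC, a ratio of 0.481 (0.463 to 0.501). Slc40a1, the iron exporter ferroportin, had 637 reads in siSRSF1, 924 in siSRSF2 and 1137 in siNC, a ratio of 0.492 (0.445 to 0.542). Cers6, a ceramide synthase, had 582 reads in siSRSF1, 1147 in siSRSF2 and 1030 in siNC, a ratio of 0.496 (0.447 to 0.549). The siSRSF1 library was the lowest for all 3, and Slc40a1 and Cers6 lost the call after GC correction, at 0.527 each. Larger decreases came from genes with fewer reads. Kl, which encodes klotho, a co-receptor of fibroblast growth factor signalling (chromosome 5, 150952607 to 150993817), had 43 reads in siSRSF1, 115 in siSRSF2 and 157 in siNC, a ratio of 0.242 (0.167 to 0.338). Cckar, the receptor for cholecystokinin (chromosome 5, 53697776 to 53707705), had 78 reads in siSRSF1, 110 in siSRSF2 and 258 in siNC, a ratio of 0.266 (0.203 to 0.343). The hormone gene Cck was thus above siNC and the gene of its receptor below it. Aass, an enzyme of lysine breakdown, had 103 reads in siSRSF1, 205 in siSRSF2 and 277 in siNC, a ratio of 0.327 (0.258 to 0.410). Tcim, a small regulator of transcription, had 421 reads in siSRSF1, 1578 in siSRSF2 and 935 in siNC, a ratio of 0.395 (0.351 to 0.444), so siSRSF2 lay above siNC where siSRSF1 lay below it.

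**Figure D3:**
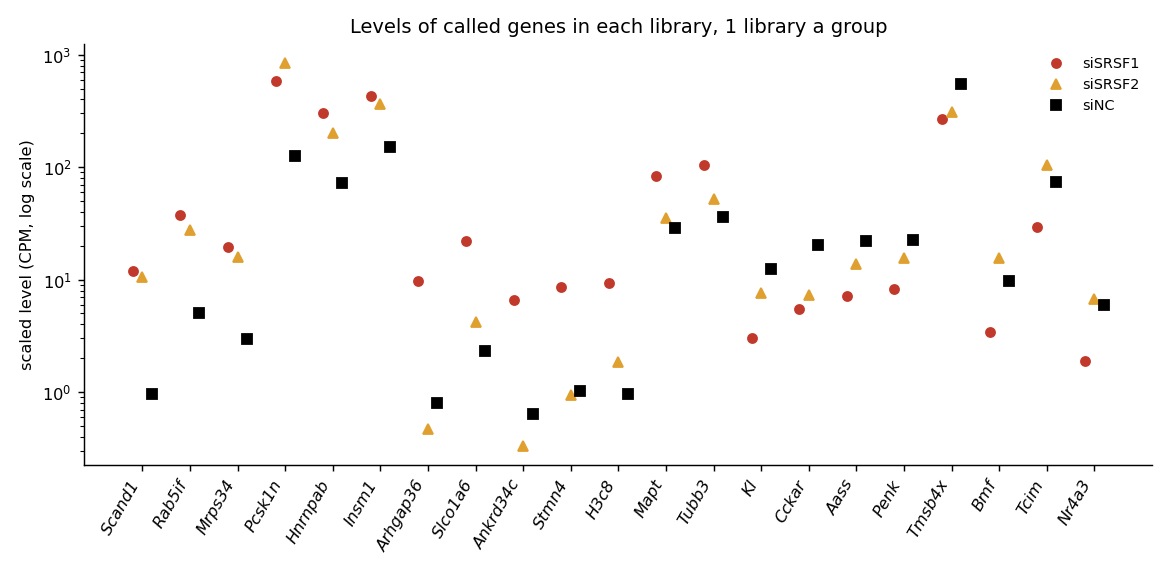
Scaled levels (CPM, log axis) of 21 called genes in siSRSF1 (red circles), siSRSF2 (orange triangles) and siNC (black squares), 1 library each, so no error bars are drawn. From the left, the first 6 genes are near each other in both siRNA libraries and low in siNC. The next genes, from Arhgap36 to Tubb3, are highest in siSRSF1, and those from Kl onward are lowest in siSRSF1.

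Gene families were then compared by symbol or by written list. The 81 families held 2654 of the genes compared, and 39 families had no called member. Of the 60 families with at least 15 compared members, 16 had a median log2 ratio above 0.1, 7 had one below -0.1 and 37 lay within 0.1 of 0, beside a median of 0 over all genes. Family medians are descriptions of these 2 libraries and were not tested.

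**Figure D4:**
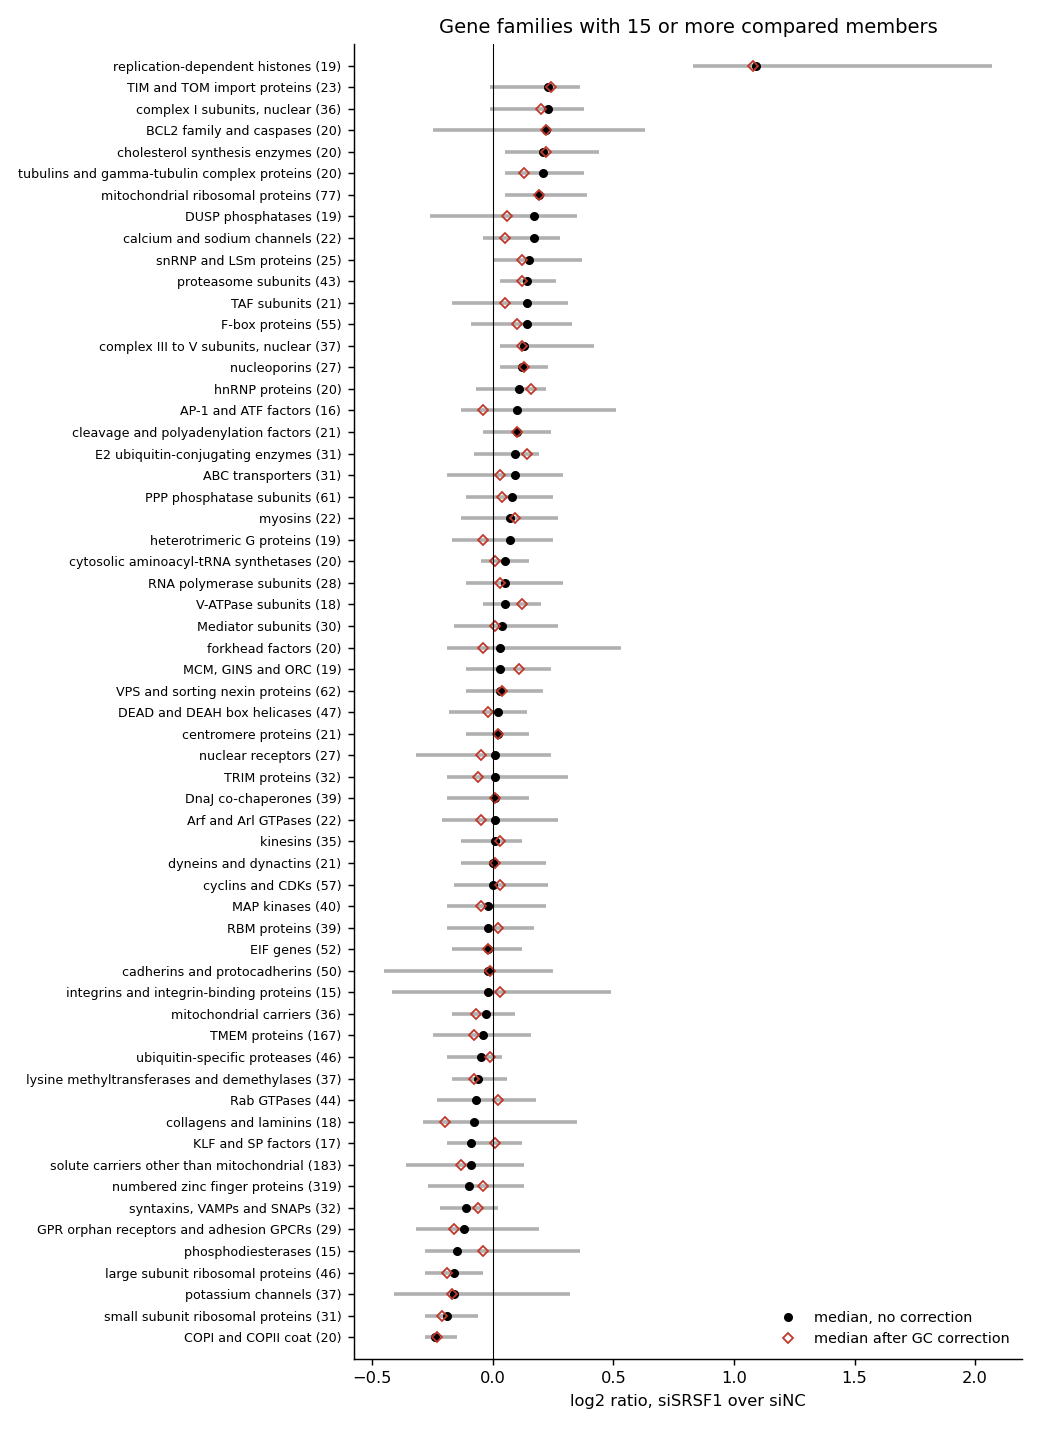
Median log2 ratio of siSRSF1 over siNC (black points) with quartiles (grey bars) for the 60 families with 15 or more compared members, the number compared in brackets, and the median after GC correction (red diamonds). Replication-dependent histones stand at the top at 1.09, a value raised by members that reached 20 reads in siSRSF1 alone, and the COPI and COPII coat at the bottom at -0.24.

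Replication-dependent histone genes were the family with the largest difference. They encode the bulk histones made during S phase, lie in clusters of small, mostly single-exon genes, and their messages usually end in a stem-loop without a poly(A) tail. How RNA selection during library preparation bore on the counts of such messages was not tested. Of 64 genes in the table, 45 had reads and 19 were compared, 9 with 20 reads in both libraries and 10 only through siSRSF1, and 10 of the 19 were called higher, beside 2.4% of all genes and 131 of the 285 that passed only through siSRSF1. Because a gene of that kind could be called in 1 direction only, the sum over all 64 is the better guide. It was 5208 reads in siSRSF1, 3706 in siSRSF2 and 2172 in siNC, a ratio of 2.1 (2.0 to 2.21). H1f2, a linker histone, held 2812 of these reads in siSRSF1, 2409 in siSRSF2 and 1390 in siNC. Without H1f2, the sums were 2396, 1297 and 782 reads in that order, a ratio of 2.69 (2.48 to 2.92), and the 45 members under 20 reads in both had 171, 129 and 86 reads, a ratio of 1.74 (1.34 to 2.29). Copies of these genes are nearly identical, and how the authors assigned reads that fit several copies is not stated in the sources, so the split between copies is uncertain. Genes of the cell cycle and of DNA replication had medians near 0. The 57 cyclins and CDKs had one of 0.00 with 0 called, and the 19 MCM, GINS and ORC genes had one of 0.03 with 0 called. After GC correction these medians were 0.03 and 0.11. Intervals lay above 1 for 20 and below 1 for 16 of the cyclins and CDKs, and for 9 and 2 of the MCM, GINS and ORC genes.

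The called histone genes were of the H1, H2B, H3 and H4 classes, and the promoters of 1 gene each of H1, H2B, H3 and H4 are shown because these genes lie at separate places on chromosome 13 and all were called higher in siSRSF1. Sequences are from RefSeq on GRCm38.p6, at chr13:23763418-23763717 (+) for H1f1, chr13:23571150-23571449 (+) for H2bc8, chr13:23535168-23535467 (+) for H3c8 and chr13:22041313-22041612 (-) for H4c9. Capitals mark TATAAA on the strand of the gene, and CCAAT on either strand (ATTGG where it lies on the other strand), motifs that can share at most 1 base.
H1f1: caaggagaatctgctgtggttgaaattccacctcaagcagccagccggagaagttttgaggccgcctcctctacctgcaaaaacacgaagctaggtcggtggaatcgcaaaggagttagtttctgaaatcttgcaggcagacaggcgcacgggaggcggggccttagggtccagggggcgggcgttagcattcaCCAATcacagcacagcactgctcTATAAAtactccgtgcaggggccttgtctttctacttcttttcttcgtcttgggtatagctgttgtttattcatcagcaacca
H2bc8: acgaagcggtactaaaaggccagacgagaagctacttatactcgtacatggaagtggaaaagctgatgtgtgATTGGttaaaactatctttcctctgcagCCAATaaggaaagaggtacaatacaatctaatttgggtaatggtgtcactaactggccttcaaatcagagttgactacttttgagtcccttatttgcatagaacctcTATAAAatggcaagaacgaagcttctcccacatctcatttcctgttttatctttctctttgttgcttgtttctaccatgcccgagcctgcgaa
H3c8: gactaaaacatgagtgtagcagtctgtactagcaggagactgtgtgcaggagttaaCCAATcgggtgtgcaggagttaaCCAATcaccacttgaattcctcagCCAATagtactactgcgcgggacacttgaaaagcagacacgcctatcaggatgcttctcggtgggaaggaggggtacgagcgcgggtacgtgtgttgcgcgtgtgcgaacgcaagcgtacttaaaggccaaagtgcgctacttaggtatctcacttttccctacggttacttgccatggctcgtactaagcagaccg
H4c9: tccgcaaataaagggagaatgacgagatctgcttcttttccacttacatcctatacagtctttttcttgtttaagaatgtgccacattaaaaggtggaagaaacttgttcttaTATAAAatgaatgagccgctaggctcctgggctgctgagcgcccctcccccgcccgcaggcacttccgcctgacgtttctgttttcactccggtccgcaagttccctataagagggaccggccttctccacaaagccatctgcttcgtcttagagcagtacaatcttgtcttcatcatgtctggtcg
Of the 17 compared histone genes with a promoter in that table, 10 (58.8%) held TATAAA, 13 (76.5%) held CCAAT and 7 (41.2%) held both. Among the 9300 compared genes with a promoter there, the shares were 5.01%, 43.8% and 2.48%, and among all 27025 genes with a promoter listed they were 9.77%, 41.1% and 4.33%. A match describes the letters of a window and shows no bound factor.

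Values of these histone genes varied. H4c9 had 624 reads in siSRSF1, 507 in siSRSF2 and 150 in siNC, a ratio of 3.64 (3.05 to 4.39), with both siRNA libraries well above siNC. H2bc4 had 608 reads in siSRSF1, 158 in siSRSF2 and 182 in siNC, a ratio of 2.92 (2.48 to 3.48), with siSRSF2 near siNC. H3c8 had 135 reads in siSRSF1, 28 in siSRSF2 and 12 in siNC, a ratio of 9.53 (5.47 to 19.6). H2bc8 had 80 reads in siSRSF1, 28 in siSRSF2 and 22 in siNC, a ratio of 3.14. H1f1 rested on 23 reads in siSRSF1, 5 in siSRSF2 and 1 in siNC, and its ratio of 14.1 has an interval of 3.28 to 831. H3c8, H2bc8 and H1f1 were thus high in siSRSF1 with siSRSF2 nearer to siNC. Among the 9 replication-independent histone genes, H1f0, the linker histone of resting cells, was the lowest at 0.688, with 2380 reads in siSRSF1, 3366 in siSRSF2 and 3036 in siNC, while 7 of the 9 were above 0.

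Genes of cytosolic ribosomes lay below siNC and genes of mitochondrial ribosomes above it, both by small amounts spread over most members. Of 46 large-subunit ribosomal protein genes, 36 were below 0 with a median log2 ratio of -0.16, and of 31 small-subunit genes, 25 were below 0 with a median of -0.19. None of these genes was called. Ribosomal protein genes have many processed pseudogenes that share their sequence, so single counts are uncertain. Rps4x, of the small subunit, had 4141 reads in siSRSF1, 4578 in siSRSF2 and 5288 in siNC, a ratio of 0.687. Rpl17, of the large subunit, had 2394 reads in siSRSF1, 2660 in siSRSF2 and 3183 in siNC, a ratio of 0.660. The summed reads, however, were lowest in siSRSF2, with 148948 in siSRSF1, 140742 in siSRSF2 and 145315 in siNC for the large subunit, a scaled ratio of siSRSF1 to siNC of 0.899 (0.893 to 0.906). Nor was the family uniform, since Rps2 had 9125 reads in siSRSF1, 7149 in siSRSF2 and 5667 in siNC, a ratio of 1.41. Of 77 mitochondrial ribosomal protein genes, 64 were above 0 with a median of 0.19, and 2 (2.60%) were called higher, Mrps34 and Mrps24, beside 2.4% of all genes. Mrps24 had 181 reads in siSRSF1, 175 in siSRSF2 and 63 in siNC, a ratio of 2.51 (1.88 to 3.41).

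Most other mitochondrial families encoded in the nucleus also had medians above 0. Complex I, which takes electrons from NADH, had 27 of 36 subunit genes above 0 with a median of 0.23 and 0 called. Complexes III to V, which carry out the later steps of oxidative phosphorylation, had 29 of 37 above 0 with a median of 0.13. Of these, 2 were called higher (5.41%, beside 2.4% of all genes) and 0 lower. The TIM and TOM genes of protein import had 17 of 23 above 0 with a median of 0.23. Of these, 0 were called higher and 1 lower (4.35%, beside 1.2% of all genes), and Timm10b was the lowest at a ratio of 0.42. Cox5a, a subunit of cytochrome c oxidase, had 769 reads in siSRSF1, 546 in siSRSF2 and 288 in siNC, a ratio of 2.34 (2.04 to 2.69). Timm13, an import chaperone, had 687 reads in siSRSF1, 601 in siSRSF2 and 324 in siNC, a ratio of 1.86. In both genes siSRSF2 lay between the other libraries. The 12 genes encoded in the mitochondrion itself, which are poor in GC, had 9 below 0 and a median of -0.14, but GC correction turned this to 0.03. Correction for gene length lowered the complex I median to 0.09. The 36 mitochondrial carriers were an exception, with 22 below 0, a median of -0.03 and 0 called. Proteasome subunits had 34 of 43 above 0 with a median of 0.14 and 0 called.

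The genes of vesicle coats lay below siNC as a family, with little spread. COPI carries cargo from the Golgi back to the endoplasmic reticulum, and COPII carries it out of the endoplasmic reticulum. All 20 coat genes were below 0, with intervals below 1 for 17, a median log2 ratio of -0.24 and an interquartile range of 0.12, against 0.42 over all genes. Summed reads were 66457 in siSRSF1, 63883 in siSRSF2 and 69439 in siNC, a ratio of siSRSF1 to siNC of 0.839 (0.830 to 0.848) after scaling. The sum was lowest in siSRSF2, the library with the most reads in all. Sec23a, of the inner COPII coat, had 482 reads in siSRSF1, 668 in siSRSF2 and 737 in siNC, a ratio of 0.574 (0.510 to 0.644). Copa, of the COPI coat, had 9315 reads in siSRSF1, 11262 in siSRSF2 and 11407 in siNC, a ratio of 0.716 (0.697 to 0.736). For Sec23a and Copa, unlike the sum, siSRSF2 lay nearer to siNC, at ratios of 0.761 and 0.829. None of the 20 reached 2-fold. Most other traffic families were nearer to 0, with medians of 0.03 for 62 VPS and sorting nexin genes, -0.07 for 44 Rab GTPases and -0.11 for 32 syntaxin, VAMP and SNAP genes, while 7 cathepsins, proteases of the lysosome, had one of 0.29. Arf1, the GTPase that recruits COPI, went the other way, with 7754 reads in siSRSF1, 5493 in siSRSF2 and 3111 in siNC, a ratio of 2.19 (2.10 to 2.28).

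The families of RNA processing named here had medians between -0.02 and 0.15. The 12 SR protein and Tra2 genes had a median log2 ratio of -0.01 and an interquartile range of 0.07, and none was called. Srsf1 was the lowest of them at 0.683. Srsf9, a small SR protein, was the highest, with 800 reads in siSRSF1, 888 in siSRSF2 and 445 in siNC, a ratio of 1.58 (1.40 to 1.77). Srsf3, Srsf7, Srsf10 and Srsf11 stood between 0.992 and 1.01. Of 20 hnRNP genes, which encode RNA-binding proteins that often act against SR proteins in splice choice, 2 (10%) were called higher, beside 2.4% of all genes, and the median was 0.11. These were Hnrnpab, above, and Hnrnpa0, with 1886 reads in siSRSF1, 2137 in siSRSF2 and 695 in siNC, a ratio of 2.38 (2.18 to 2.60). Hnrnph1 was the lowest of the family, with 4643 reads in siSRSF1, 4845 in siSRSF2 and 5855 in siNC, a ratio of 0.696. Among 25 snRNP and LSm genes, core parts of spliceosomal particles, 18 were above 0 and the median was 0.15. Of these, 1 was called higher and 1 lower (8% in either direction, beside 3.6% of all genes). Lsm2 was the highest, with 428 reads in siSRSF1, 395 in siSRSF2 and 178 in siNC, a ratio of 2.11 (1.77 to 2.53). Snrpn was the lowest, at a ratio of 0.411. Of 27 nucleoporin genes, 21 were above 0 with a median of 0.12, and 1 was called higher (3.7%, beside 2.4% of all genes). The 39 RBM proteins and the 47 DEAD and DEAH box helicases had 0 called and medians of -0.02 and 0.02.

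Endocrine families were split. Of 14 peptide hormone and neuropeptide precursors, 11 were above 0, and 2 were called higher and 2 lower (28.6% in either direction, beside 3.6% of all genes). Igf2, insulin-like growth factor 2, had 1713 reads in siSRSF1, 1023 in siSRSF2 and 627 in siNC, a ratio of 2.4 (2.19 to 2.63), and Cck is given above. Penk, the enkephalin precursor, had 118 reads in siSRSF1, 234 in siSRSF2 and 283 in siNC, a ratio of 0.367 (0.292 to 0.455). Cartpt, the precursor of the CART peptide, had 69 reads in siSRSF1, 151 in siSRSF2 and 155 in siNC, a ratio of 0.392 (0.290 to 0.522). Both of the genes called lower were below siNC in siSRSF1 by more than in siSRSF2. Among 13 granins and prohormone convertases the median was -0.15. Chgb, a granin of secretory granules, had 75462 reads in siSRSF1, 95599 in siSRSF2 and 101921 in siNC, a ratio of 0.649. Pcsk2, prohormone convertase 2, had 18942 reads in siSRSF1, 19367 in siSRSF2 and 25775 in siNC, a ratio of 0.645. Both were below siNC without reaching 2-fold, while Pcsk1n in the same family was 4.64-fold higher.

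Several families of the cell surface held called genes in both directions. Of 183 solute carriers other than the mitochondrial ones, 7 were called higher and 2 lower, or 4.92% beside 3.6% of all genes, and 110 were below 0 with a median of -0.09. Slco1a5, an organic anion transporter, had 109 reads in siSRSF1, 69 in siSRSF2 and 17 in siNC, a ratio of 5.50 (3.36 to 10). Slc2a2, the glucose transporter GLUT2, had 114 reads in siSRSF1, 7 in siSRSF2 and 42 in siNC, a ratio of 2.37 (1.66 to 3.48), so the 2 siRNA libraries lay on opposite sides of siNC. Of 37 potassium channel genes, which had a median of -0.16, 1 was called higher and 3 lower (10.8% in either direction, beside 3.6% of all genes). Kcnq3, a voltage-gated channel subunit, had 207 reads in siSRSF1, 362 in siSRSF2 and 384 in siNC, a ratio of 0.473 (0.397 to 0.561), and lost the call after GC correction at 0.504. Of 50 cadherins and protocadherins, with a median of -0.02, 2 were called higher and 4 lower (12% in either direction, beside 3.6% of all genes). Pcdh7 had 74 reads in siSRSF1, 178 in siSRSF2 and 164 in siNC, a ratio of 0.397 (0.297 to 0.524), and Pcdh19 had 95 reads in siSRSF1, 245 in siSRSF2 and 202 in siNC, a ratio of 0.414 (0.320 to 0.529). Both protocadherins, which are adhesion proteins, were low in siSRSF1 alone. Of 15 integrins and integrin-binding proteins, 3 were called higher and 0 lower (20% in either direction, beside 3.6% of all genes). Only siSRSF1 reached 20 reads for 2 of the 15, and only siNC for 1, so these could be called in 1 direction only. Itgb8 had 259 reads in siSRSF1, 353 in siSRSF2 and 100 in siNC, a ratio of 2.27 (1.80 to 2.89). The cadherins had a median level of 9.14 CPM, and 5.91% of all genes between 5 and 10 CPM were called. The potassium channels had one of 10.5 CPM, and 2.54% of all genes between 10 and 20 CPM were called.

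Tubulins and cholesterol synthesis enzymes lay mostly above siNC. Of 20 tubulin and gamma-tubulin complex genes, 16 were above 0 with a median of 0.21, which GC correction lowered to 0.13. Tubb3, the beta-tubulin typical of neurons, had 1485 reads in siSRSF1, 785 in siSRSF2 and 453 in siNC, a ratio of 2.87 (2.59 to 3.20). Tuba4a, an alpha-tubulin, had 2645 reads in siSRSF1, 1195 in siSRSF2 and 1494 in siNC, a ratio of 1.55, and both were highest in siSRSF1. Of 20 cholesterol synthesis enzymes, 17 were above 0 with a median of 0.21. Fdps, which makes farnesyl diphosphate, had 175 reads in siSRSF1, 46 in siSRSF2 and 55 in siNC, a ratio of 2.78 (2.05 to 3.85). Gstm1, a glutathione S-transferase, had 1989 reads in siSRSF1, 1471 in siSRSF2 and 743 in siNC, a ratio of 2.35 (2.16 to 2.56), in a family with paralogs that share sequence.

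Among transcription factors and signalling genes, single members lay beyond 2-fold in either direction. The 319 numbered zinc finger genes had 5 called higher and 5 lower (3.13% in either direction beside 3.6% of all genes) and a median of -0.10, which GC correction brought to -0.04. Zfp771 had 348 reads in siSRSF1, 214 in siSRSF2 and 59 in siNC, a ratio of 5.14 (3.92 to 6.94). Of 27 nuclear receptors, 1 was called higher and 2 lower (11.1% in either direction, beside 3.6% of all genes). Nr2f6, an orphan receptor, had 202 reads in siSRSF1, 334 in siSRSF2 and 39 in siNC, a ratio of 4.50 (3.21 to 6.58). Nr4a3, an immediate-early orphan receptor, had 27 reads in siSRSF1, 100 in siSRSF2 and 74 in siNC, a ratio of 0.324 (0.198 to 0.503). Nr4a1, its close relative, stood at 0.569, with levels of 69.7 CPM in siSRSF1, 129 CPM in siSRSF2 and 123 CPM in siNC, so both were low in siSRSF1 alone. Nr4a2, another relative, stood at 0.551 in siSRSF1 and was also below siNC in siSRSF2, at 0.794 (0.717 to 0.879). In the BCL2 family and caspases, 2 of 20 were called higher and 1 lower (15% in either direction, beside 3.6% of all genes). For 2 of the 20, siSRSF1 reached 20 reads and siNC did not, so these could be called higher only. Bbc3, the pro-apoptotic protein PUMA, had 608 reads in siSRSF1, 820 in siSRSF2 and 243 in siNC, a ratio of 2.19 (1.89 to 2.56), which GC correction lowered to 1.57. Bmf, another pro-apoptotic BH3-only protein, had 49 reads in siSRSF1, 232 in siSRSF2 and 122 in siNC, a ratio of 0.355 (0.248 to 0.495). The 2 genes thus lay on opposite sides of siNC.

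Ratios followed the base composition of transcripts. Across 11589 genes, Spearman's rank correlation between transcript GC content and the log2 ratio was 0.34, a description of 2 libraries in which all genes share the same depth. With the genes cut into 10 equal groups by GC content, the median log2 ratio was 0.23 in the group highest in GC and -0.15 in the lowest. The share called higher was 6.9% in the highest group and 0.949% in the lowest, and the share called lower was 0.69% in the highest group and 1.38% in the lowest. Length gave a rank correlation of -0.19, which became -0.11 after GC correction, and mean level gave -0.01. The part of base composition in single results was not tested beyond the corrected values given.

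Single-exon genes, whose messages need no splicing, were not below the others. The 281 genes with 1 exon had a median of 0.13 and 12.1% called higher, and the 2472 genes with 17 or more exons had a median of -0.02 and 1.5% called higher. The shares called lower were 2.49% and 0.607% in the same order, so calls in both directions were more frequent among genes with 1 exon. Without the replication-dependent histones, 264 genes with 1 exon had a median of 0.11 and 9.47% called higher. Genes with 1 exon were also of lower level, with a median of 14.6 CPM against 65.5 CPM for those with 17 or more. With the genes cut into 3 equal groups by GC content, the highest group held 127 genes with 1 exon and a median of 0.39, against 0.10 for 774 genes with 17 or more. In the lowest group, 79 genes with 1 exon had a median of -0.10, against -0.12 for 824 genes with 17 or more. In the middle group, 75 genes with 1 exon had a median of 0.09, against -0.02 for 874 genes with 17 or more. The gap between single-exon and many-exon genes was thus widest where GC content was highest. Of the genes with 1 exon, 23.6% were called higher and 0% lower in the highest group, against 0% and 6.33% in the lowest.

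Purine-rich motifs of the kind that SRSF1 binds gave little beyond base composition. The density of GGAGA in the longest transcript (protein-coding where there was one) had a rank correlation of 0.10 with the log2 ratio and 0.03 after GC correction. GAAGAA had -0.09 and 0.00, and GGA had 0.19 and 0.01. Of 3 equal groups by GGAGA density, the densest had a median of 0.05 and the least dense one of -0.03. Within the 3 groups by GC content, the densest and the least dense genes stood at 0.15 and 0.15 where GC was highest, at 0.02 and -0.01 in the middle, and at -0.08 and -0.12 where it was lowest.

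**Figure D5:**
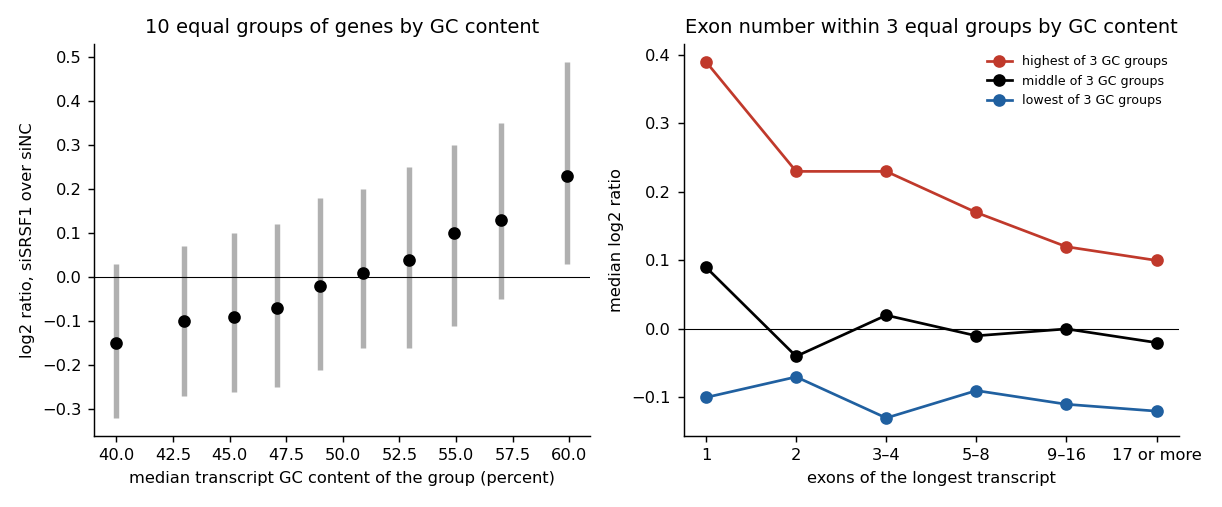
Left, median log2 ratio of siSRSF1 over siNC (points) with quartiles (grey bars) in 10 equal groups of genes by transcript GC content, plotted at the median GC percentage of each group. Right, median log2 ratio by the number of exons within the highest (red), middle (black) and lowest (blue) of 3 equal groups by GC content. The median is 0.23 in the group highest in GC and -0.15 in the lowest, and 1-exon genes stand at 0.39 in the highest of the 3 groups and -0.10 in the lowest.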

How the data were processed

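Total RNA of MIN6 cells was sequenced in 3 libraries, 1 per siRNA. The deposited table gives per gene a raw read count and an FPKM computed by the authors, per the file headers, and the counts were used. FPKM was checked to equal count over length and column total within 0.00045 percent. Per the submitters' processing notes, Bowtie2 2.4.2 was used for alignment and the build was mm10, also named GRCm38. Neither the counting tool, the strand setting nor the treatment of reads that fit several genes is stated in the sources.

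Lines sharing a symbol (67 of 21935) were summed. Counts were scaled by TMM over the 3 libraries (edgeR 4.0.16, R 4.3.3, factors 0.990, 1.020 and 0.991 for siSRSF1, siSRSF2 and siNC). A ratio adds a prior of 0.5 reads in proportion to scaled depth, and its 95% interval was derived from the exact Clopper-Pearson bounds on the fraction of a gene's reads in siSRSF1 (scipy 1.17.1). A level of 3 reads equals 0.209 CPM in siSRSF1, 0.200 in siSRSF2 and 0.239 in siNC. With 1 library per group no test between groups was run. The steps were tested on simulated data.

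Exon number, GC content and motif densities came from the longest protein-coding transcript in GENCODE M21, or the longest of any type where a gene had none. GENCODE M21 held 21816 of the gene identifiers, 99.1% of them with the same coordinates. GC correction subtracted a lowess trend (fraction 0.3, 3 iterations, statsmodels 0.14.6). Promoter sequences are RefSeq's for GRCm38.p6. In all, 9 alternatives were run.

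Members, families and lists were chosen with earlier results of these data known. Named genes are the 5 highest and 5 lowest called genes in each of 4 bands of reads, up to 4 members per family with 100 reads or more and an interval excluding 1, Srsf1, Srsf2 and cell type markers. Some are left out, and a few others, namely Med30, Rtl10, H1f2, H2bc8, Stmn4, Snrpn, Timm10b, Srsf3, Srsf7, Srsf10 and Srsf11, were chosen after their values were seen.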

Additional observations from a re-analysis of the deposited data

How the results depend on the processing

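Scaling by median of ratios, plain totals, TMM over siSRSF1 and siNC alone or totals without Ins1 and Ins2 gave 276 to 279 genes higher and 139 to 143 lower, and a prior of 2 reads 269 and 124. A minimum of 50 reads left 167 higher and 65 lower. With no minimum, 431 were higher and 243 lower, the SD of log2 ratios was 1.00 (0.44 as reported), the interquartile range up to 2 CPM was 2.32, the lowest and highest of 10 GC groups had medians of -0.12 and 0.28, and genes with 1 exon and with 17 or more exons had 0.22 and 0.00. GC correction gave 232 higher and 138 lower (221 and 116 shared with the uncorrected calls), a zinc finger median of -0.04 and 0.00 in both of these GC groups. Length correction gave 252 higher and 153 lower, medians of -0.24 and -0.30 for large and small ribosomal subunits, 0.09 for complex I, 0.21 in the highest of the 10 GC groups, and 0.06 and 0.03 for genes with 1 exon and with 17 or more. Within the lowest and highest of 3 groups by GC content, genes with 1 exon had -0.10 and 0.39, and those with 17 or more had -0.12 and 0.10. No called named gene changed sign under these alternatives. Of the 81 family medians, 17 changed sign under GC correction, 5 under length correction, 4 at a minimum of 50 reads and 13 with no minimum, most of them medians within 0.1 of 0. Beyond that band, GC correction turned the mitochondrially encoded genes (0.03), and having no minimum turned families such as the cathepsins (-0.01). Of 71 named called genes, 14 lost the call under GC correction, 6 under length correction and 2 under a prior of 2 reads. No paired analysis was possible because each group has 1 library. Depth limits single genes under about 100 reads, and the lack of replicates limits all of them.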
